A study of Mus musculus with 9 samples.

Results

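The interferon-inducible GTPases were followed in MLO-Y4 osteocyte-like cells through 9 of the 56748 genes in the count table. They were chosen by family name, with earlier results of these data known: 5 guanylate-binding proteins (GBPs), Gbp2, Gbp2b, Gbp3, Gbp5 and Gbp7, and 4 immunity-related GTPases (IRGs), Irgm1, Irgm2, Igtp and Ifi47. RNA was sequenced from MLO-Y4 cells of 3 groups with 3 libraries each. All MLO-Y4 cells grew below a transwell insert that held primary articular chondrocytes of C57BL/6J mice aged 5 to 6 days. Chondrocytes of the control group were unstimulated, and those of the 24 h and 48 h groups had first received interleukin-1β (IL-1β) at 10 ng/mL for 6 h and then shared the medium with the MLO-Y4 cells for the named time. The labels give no culture time for the control group, so stimulation and time cannot be told apart in a difference from control. They also name the cells of the 48 h samples MLO-Y5, MLO-Y6 and MLO-Y7, while the protocol names MLO-Y4 throughout. MLO-Y4 is a clonal mouse line, immortalised by a viral T antigen under the osteocalcin promoter.

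GBPs and IRGs are large GTPases that cells make in quantity when interferon binds its receptor. Interferon-γ signals through the JAK kinases to GAS elements (gamma-activated sites) in promoters and induces IRF1, which binds ISRE elements (interferon-stimulated response elements). Type I interferons also act through the ISRE, by a complex that contains STAT2 and IRF9. The proteins assemble on the membranes of vacuoles that hold intracellular pathogens, where they break the membrane or mark it for autophagy, and GBPs also bring bacterial lipopolysaccharide to the inflammatory caspases. They are best known from macrophages and fibroblasts.

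The GBP members form a cluster on chromosome 3 and the IRG members lie on chromosome 11, and the promoter of nearly every member held an ISRE core. All coordinates are on the build GRCm39. On the plus strand of chromosome 3 the order is Gbp5 (142199739 to 142228105), Gbp7 (142236103 to 142255910), Gbp3 (142265787 to 142278970), Gbp2b (142300608 to 142324940) and Gbp2 (142326363 to 142343769). Irgm1 (chromosome 11, 48752795 to 48762510, minus strand) and Ifi47 (48967414 to 48987801, plus strand) are near each other. Igtp (58090382 to 58098417) and Irgm2 (58090444 to 58113608) overlap on the plus strand of the same chromosome. RefSeq promoters, 250 bases before to 50 bases after the start site, matched all 9 members by symbol and gave 10 start sites, since Gbp3 has a pair. The ISRE core was searched as GAAA, any 2 bases, GAAA, and the GAS as TTC, any 3 bases, GAA, each on both strands. The following stretches hold the matches upstream of the start site, with the ISRE core or the GAS in capitals, and are shown because they are the docking letters of the route described above.
Gbp2, ISRE, chr3:142326355-142326384, plus strand: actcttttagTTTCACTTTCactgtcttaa
Gbp2b, ISRE, chr3:142300461-142300490, plus strand: gtacttctaaTTTCACTTTCttctttatca
Gbp3, overlapping ISRE matches, chr3:142265753-142265782, plus strand: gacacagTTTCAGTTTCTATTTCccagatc
Gbp5, GAS, chr3:142202445-142202468, plus strand: gcaacTTCTGGGAAattagttcag
Gbp5, ISRE, chr3:142202520-142202549, plus strand: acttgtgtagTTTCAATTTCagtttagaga
Gbp5, GAS nearer the start, chr3:142202633-142202661, plus strand: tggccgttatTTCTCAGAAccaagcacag
Gbp7, a pair of GAS, chr3:142235990-142236019, plus strand: tTTCCAGGAAaagcagaagcTTCTCAGAAa
Gbp7, ISRE, chr3:142236034-142236063, plus strand: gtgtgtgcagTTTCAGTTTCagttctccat
Irgm1, overlapping ISRE matches, chr11:48762255-48762284, minus strand: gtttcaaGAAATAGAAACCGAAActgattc
Irgm2, GAS and ISRE, chr11:58105724-58105752, plus strand: ccatTTCCAGGAActGAAACTGAAAgctg
Igtp, GAS and ISRE, chr11:58090333-58090361, plus strand: ccatTTCTAGGAActGAAACTGAAAgctg

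An ISRE core was present in 8 of 9 members, against 3.44% of 32851 RefSeq promoters of the same length. Ifi47 had neither motif, and the other start site of Gbp3 had none either, which says only that these letters are not in those windows. A GAS was present in Gbp5, Gbp7, Irgm2 and Igtp, that is 4 of 9, against 8.30% of all promoters. The same 4 members held both motifs, against 0.454% of promoters. The Irgm2 and Igtp stretches have the GAS and the ISRE core side by side in the same order. Starts in the GENCODE annotation of the same build lie further upstream for some members, which places parts of the Gbp2, Gbp3, Gbp5, Gbp7, Irgm1 and Igtp stretches inside an annotated first exon, and the RefSeq start of Irgm2 lies inside the gene as given in the count table. These matches are a description of the sequence, since binding was not measured.

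**Figure D1:**
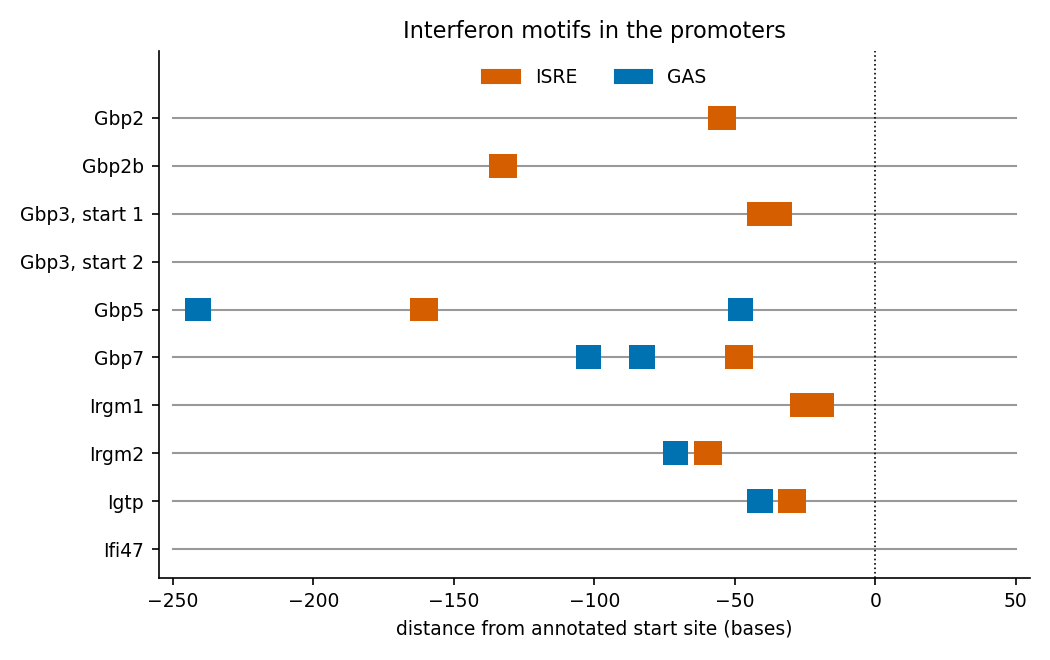
Position of ISRE cores (orange) and GAS (blue) in the 10 promoter windows of the members, with the distance from the annotated start site in bases on the x axis and 1 line a start site. Matches lie before the start site in 8 of 9 members, and Ifi47 shows none.

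The coding sequence divides the IRGs into classes. In IRG proteins the loop that grips the nucleotide ends either in glycine, lysine, serine (GKS, the effector class) or in glycine, methionine, serine (GMS, the regulatory class that keeps effectors off the membranes of the cell itself). The 8 codons of that loop are given below for 1 GBP and for every IRG member, with the codon of lysine or methionine in capitals, since this codon separates the classes. All lie in coding exons.
Gbp2, chr3:142329587-142329610, plus strand: ggcctctaccgcacaggcAAAtcc
Irgm1, chr11:48757588-48757611, minus strand: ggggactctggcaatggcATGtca
Irgm2, chr11:58110521-58110544, plus strand: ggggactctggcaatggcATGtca
Igtp, chr11:58097101-58097124, plus strand: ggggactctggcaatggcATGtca
Ifi47, chr11:48986475-48986498, plus strand: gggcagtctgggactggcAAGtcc

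Irgm1, Irgm2 and Igtp shared the same 24 bases and belong to the GMS class, and Ifi47 is the GKS member. All 5 GBPs carried the lysine codon. A cysteine codon at the fourth residue from the end, where a prenyl anchor for membranes is attached, was present in Gbp2, Gbp2b and Gbp5 and absent from Gbp3, Gbp7 and the IRG members. Over aligned coding bases Gbp2 and Gbp2b were 82.5% identical and Gbp3 and Gbp7 79.6%, while the other GBP pairs lay between 66.2% and 71.6%. Irgm2 and Igtp were 75.6% identical.

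This likeness bears on the counts, because reads of 150 bases were assigned to genes. Among the members only Igtp and Irgm2 shared exact windows of 150 bases over their annotated transcripts, 54 windows or 1.03% of those of Igtp and 1.40% of those of Irgm2. The exons of this pair overlap over 162 bases on the same strand. Gbp2, Gbp2b and Gbp3 shared none with any gene. Gbp7 shared 9.64% of its windows, of which 7.26% were with the pseudogene Gm43802 inside it, which had 0 counts in every library, and 2.38% with Gm66604, a long non-coding RNA on the opposite strand. Gbp5 shared 5.28% with the same Gm66604, Ifi47 3.57% with Gm74477, Irgm1 0.927% with Gm74350 and Irgm2 0.492% with another such RNA, all on the opposite strand, and whether the counting used strand is not given in the sources used here. Shorter windows of 50 bases were searched only among the members. There Gbp2 shared 1.8% of its windows with Gbp2b, Gbp3 2.68% with Gbp7 and Irgm2 7.84% with Igtp. Gm43802 overlaps 637 exonic bases of Gbp7, or 10.6%, on the same strand. Reads there may have been counted for neither gene, so the 0 counts of Gm43802 do not show that Gbp7 lost none. Ifi47 lies inside the span of Olfr56, which had at most 2 counts in a library. Exons of Ifi47 also share 111 bases, or 3.9%, with the protein-coding gene Or2v1 on the same strand. Counts of Gbp7, of Irgm2 and Igtp, and of Ifi47 are uncertain to the extent of these overlaps.

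Every member was detected in every library, and the order of the levels was nearly the same in the 3 groups. Levels between genes are given as CPM, counts relative to a library total scaled to 1000000, per kilobase of the gene length in the count table. In control, Gbp2 had the highest level at 38.7 CPM per kilobase ± 1.31 (SD, n = 3), followed by Gbp2b at 22.4 ± 1.44 (SD, n = 3) and Gbp3 at 12.2 ± 0.177 (SD, n = 3). The IRG members of the GMS class came next. Igtp was at 10.8 CPM per kilobase ± 0.728 (SD, n = 3), Irgm2 at 10.6 ± 0.911 (SD, n = 3) and Irgm1 at 7.24 ± 0.344 (SD, n = 3), and the libraries of Igtp and Irgm2 overlapped. Gbp7 followed at 5.62 CPM per kilobase ± 0.745 (SD, n = 3), Gbp5 at 0.567 ± 0.0922 (SD, n = 3) and Ifi47 at 0.277 ± 0.134 (SD, n = 3). Apart from Igtp and Irgm2, no neighbours in this order overlapped in control. The order at 24 h was that of control, again with Igtp and Irgm2 overlapping. At 48 h Gbp7 moved from the seventh to the fourth place, to 14.6 CPM per kilobase ± 0.131 (SD, n = 3), where its libraries overlapped those of Irgm2, and Irgm2 overlapped Igtp.

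**Figure D2:**
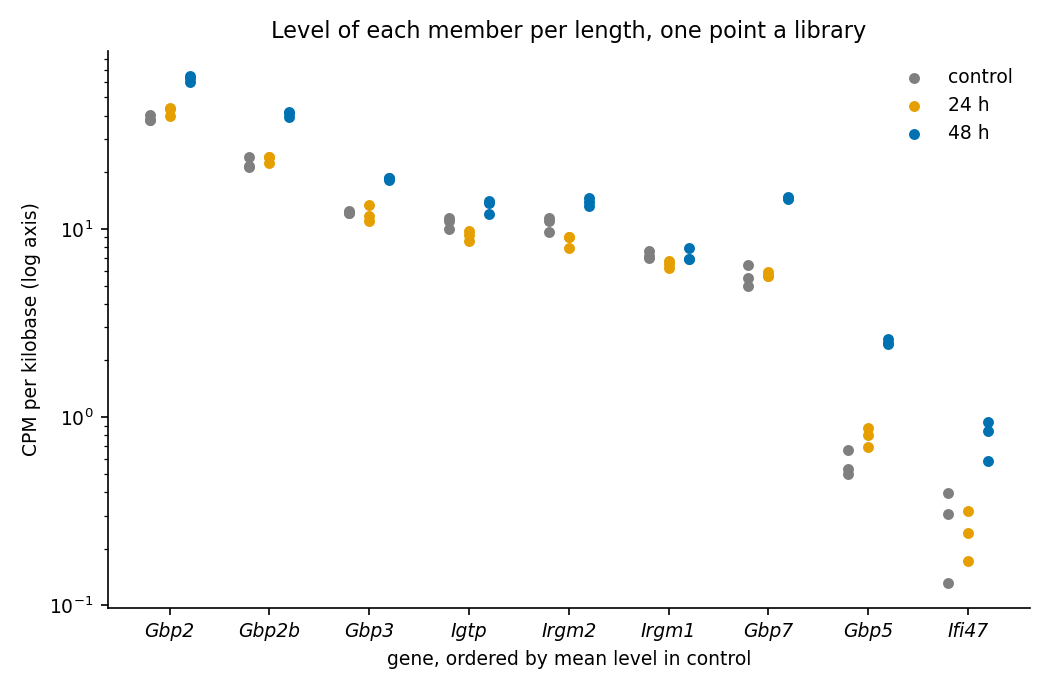
Level of each member in CPM per kilobase of gene length on a log axis, 1 point a library, grey for control, orange for 24 h and blue for 48 h, with genes in the order of their control mean. Gbp2 lies at the top in each group and Ifi47 at the bottom, and Gbp7 moves from 5.62 in control to 14.6 at 48 h.

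The comparison of 48 h with control asked whether the GTPases changed after the longer exposure to stimulated chondrocytes. All 5 GBPs and 3 of 4 IRGs were higher at 48 h, and Irgm1 was not. The increase ran from 1.22-fold for Igtp to 4.38-fold for Gbp5. Of all 13812 genes tested, 22.0% were called higher and 24.4% lower at an adjusted p under 0.05 (edgeR quasi-likelihood test, Benjamini-Hochberg over all genes). In these 8 members each 48 h library lay above each control library, which held for 25.7% of all genes tested. The median log2 fold change (log2FC) of the members was 0.70, and that of all genes tested was -0.0022. In such bulk RNA, a change in the number of expressing cells and a change in RNA per cell cannot be told apart.

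**Figure D3:**
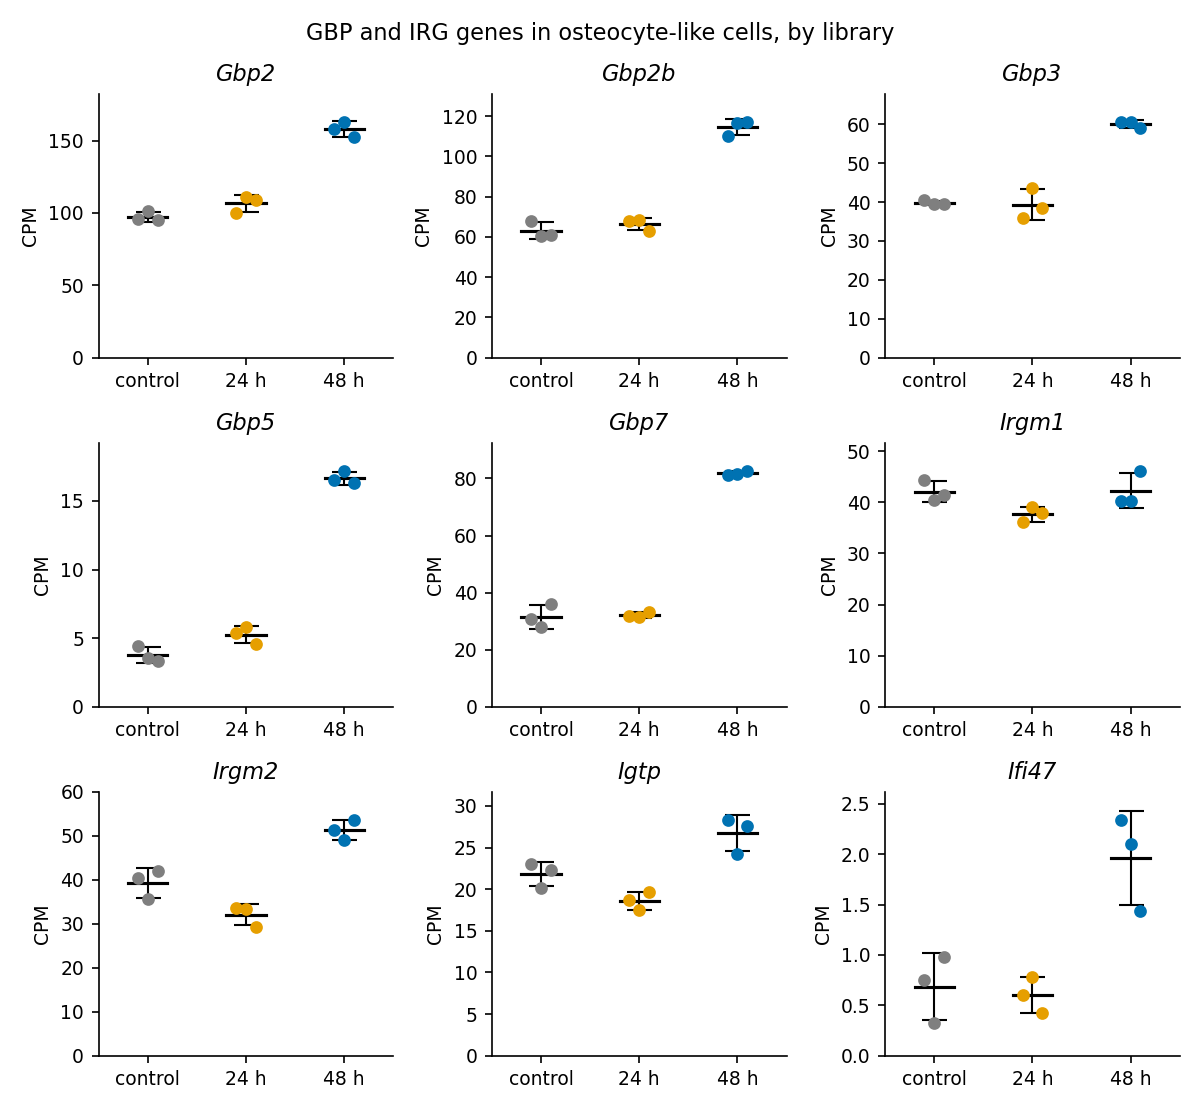
CPM of each of the 9 members, 1 panel a gene with its own axis from 0, 1 point a library, with the mean and SD of each group as bars. In 8 panels every 48 h point lies above every control point, while Irgm1 overlaps, from 40.3 to 46.2 CPM at 48 h and from 40.5 to 44.3 in control.

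Gbp5, the member of the GBPs best known for promoting NLRP3 inflammasome assembly, had the largest change. It was at 4.46, 3.52 and 3.31 CPM in the control libraries, at 5.34, 5.79 and 4.59 CPM at 24 h, and at 16.5, 17.2 and 16.3 CPM at 48 h. The 48 h libraries stood well above all 6 others. Against control, the log2FC at 48 h was 2.13 (SE 0.136, adjusted p 5.35e-10). Even so, per length Gbp5 remained the eighth of 9 members at 48 h.

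Gbp7 followed among the GBPs. It is a member without the prenylation cysteine. Its control libraries held 30.7, 27.9 and 36.1 CPM, its 24 h libraries 31.7, 31.6 and 33.3 CPM, and its 48 h libraries 81.2, 81.7 and 82.7 CPM. The 24 h values fell within the control range and the 48 h values lay apart from both groups. At 48 h versus control the log2FC was 1.37 (SE 0.0752, adjusted p 7.34e-11).

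Gbp2 and Gbp2b, both prenylated proteins that gather on pathogen vacuoles, were the most abundant members and rose by less than Gbp5 and Gbp7. Gbp2 was at 95.6, 101 and 95.3 CPM in control, at 100.1, 111 and 109 CPM at 24 h, and at 158, 163 and 152 CPM at 48 h. The control and 24 h libraries overlapped, and the 48 h libraries lay above both. The log2FC at 48 h versus control was 0.70 (SE 0.0560, adjusted p 1.07e-08).

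Gbp2b was at 67.9, 60.5 and 61.2 CPM in control, at 67.9, 68.2 and 63.1 CPM at 24 h, and at 110.2, 116.5 and 117 CPM at 48 h. The pattern was that of Gbp2, with control and 24 h mixed and 48 h apart. Its log2FC at 48 h versus control was 0.86 (SE 0.0605, adjusted p 2.10e-09).

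Gbp3, the nearest relative of Gbp7 among the members, was at 40.5, 39.5 and 39.5 CPM in control, at 35.8, 43.6 and 38.4 CPM at 24 h, and at 60.6, 60.6 and 59.0 CPM at 48 h. The 24 h libraries lay on both sides of the control libraries, and the 48 h libraries lay above all. Against control, the log2FC at 48 h was 0.59 (SE 0.0693, adjusted p 1.36e-06), the smallest of the GBPs.

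The IRGs of the GMS class differed among themselves. Irgm2, a regulator found at the Golgi, was at 40.4, 35.5 and 41.9 CPM in control, at 33.5, 33.3 and 29.4 CPM at 24 h, and at 51.3, 49.0 and 53.6 CPM at 48 h. Its 24 h libraries were the lowest and its 48 h libraries the highest, with no overlap among the 3 groups. At 48 h versus control the log2FC was 0.38 (SE 0.0745, adjusted p 0.000352).

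Igtp, also known as Irgm3 and found at the endoplasmic reticulum, was at 23.0, 20.2 and 22.3 CPM in control, at 18.7, 17.4 and 19.6 CPM at 24 h, and at 28.3, 24.3 and 27.6 CPM at 48 h. It had the order of Irgm2, also with no overlap among the groups. The log2FC at 48 h versus control was 0.29 (SE 0.0865, adjusted p 0.0104). This call rested on the 48 h library with the highest value, and without 48 h replicate 1 the adjusted p was 0.0535 at a log2FC of 0.25.

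Irgm1, a regulator best known for limiting mycobacteria and for its part in autophagy, was at 44.3, 40.5 and 41.5 CPM in control, at 36.1, 39.0 and 37.9 CPM at 24 h, and at 40.3, 40.3 and 46.2 CPM at 48 h. The control and 48 h libraries overlapped. Against control, the log2FC at 48 h was 0.0058 (SE 0.0711, adjusted p 0.956), with a 95% interval from -0.14 to 0.16. A change of more than 1.11-fold upward thus lay outside the interval. Its sign turned to -0.0099 without control replicate 2 and to -0.060 without 48 h replicate 3.

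Ifi47, the GKS member, was close to the depth limit, with 4 to 13 counts in a control library, 6 to 12 at 24 h and 27 to 41 at 48 h. It was at 0.754, 0.327 and 0.978 CPM in control, at 0.601, 0.781 and 0.423 CPM at 24 h, and at 2.34, 2.10 and 1.44 CPM at 48 h. The 48 h libraries lay above the others, and control and 24 h overlapped. At 48 h versus control the log2FC was 1.48 (SE 0.365, adjusted p 0.00276), with a wide 95% interval from 0.71 to 2.24. All 9 members passed the filter on low counts, and each would also have passed on the control and 24 h libraries alone.

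The comparison of 24 h with control asked whether the shorter exposure already moved these genes. No GBP and no IRG was called higher at 24 h, and only Irgm2 was called, as lower. At this time 3.25% of all genes tested were called higher and 2.90% lower. The log2FCs of the GBPs ran from -0.020 for Gbp3 to 0.47 for Gbp5, and those of the IRGs from -0.29 for Irgm2 to -0.16 for Irgm1. All 4 IRGs thus had a negative value and 4 of 5 GBPs a positive one. At an unadjusted p under 0.05 the values were 0.033 for Gbp2 and 0.00822 for Gbp5, both toward higher, and 0.039 for Irgm1, 0.0181 for Igtp and 0.00144 for Irgm2, all toward lower.

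Irgm2 at 24 h was at 32.0 CPM ± 2.33 (SD, n = 3) against 39.3 ± 3.36 (SD, n = 3) in control, a log2FC of -0.29 (SE 0.0784, adjusted p 0.0301). The call was lost when any 24 h library was left out, with adjusted p of 0.055, 0.0538 and 0.178 without replicate 1, 2 and 3, and also without control replicate 1 (0.122) or 3 (0.0714). The log2FC then lay between -0.32 and -0.23. Every 24 h library lay below every control library in Irgm1, Irgm2 and Igtp, which held for 11.2% of all genes tested. Ifit3 and Tap1, the genes called at 24 h among other interferon-stimulated genes, had the same order. Some genes of that list that were not called had it too, while in most of the list the libraries overlapped. Ifi47, the only GKS member, had a log2FC of -0.20, but its libraries overlapped at 4 to 13 counts in control. A difference between the classes thus cannot be read from these values. In Gbp5 every 24 h library lay above every control library, which held for 10.3%. Gbp5 missed the threshold with an adjusted p of 0.093 and a 95% interval of the log2FC from 0.14 to 0.80. The intervals of Gbp2b, Gbp3 and Gbp7 at 24 h all included 0 and reached at most 0.20, or 1.15-fold.

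**Figure D4:**
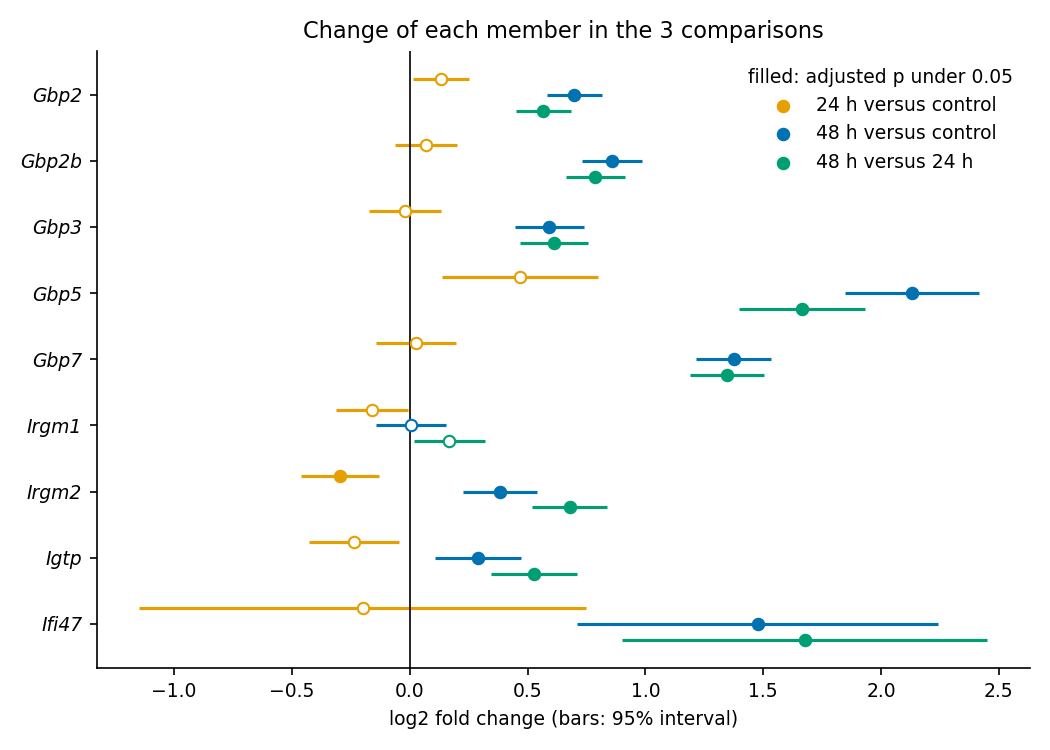
Log2FC of each member with its 95% interval in the 3 comparisons, orange for 24 h versus control, blue for 48 h versus control and green for 48 h versus 24 h, filled where the adjusted p was under 0.05. The 48 h values of 8 members lie to the right of 0, up to 2.13 for Gbp5, and the 24 h values lie between -0.29 and 0.47.

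The comparison of 48 h with 24 h tested the difference between the times directly, among cells that all shared medium with stimulated chondrocytes. The same 8 members were called higher at 48 h, while 23.7% of all genes tested were called higher and 25.4% lower. Every 48 h library lay above every 24 h library in all 9 members, against 29.1% of all genes tested. The log2FC was 1.68 for Ifi47 (SE 0.369, adjusted p 0.000975), 1.66 for Gbp5 (SE 0.127, adjusted p 4.90e-09) and 1.35 for Gbp7 (SE 0.0744, adjusted p 7.01e-11). Gbp2b had 0.79, Irgm2 0.68, Gbp3 0.61, Gbp2 0.57 and Igtp 0.53. For Irgm2 and Igtp this value was larger than that against control, since their 24 h means lay below control. Irgm1 had a log2FC of 0.17 (SE 0.0713, adjusted p 0.0596). It passed the threshold when the library total replaced the TMM scaling (adjusted p 0.0223) as well as in a fit of only the groups compared (0.0373) and without control replicate 1 (0.0496), 2 (0.0371) or 3 (0.045).

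Within the GBPs, the shares of Gbp5 and Gbp7 were larger at 48 h. Summed over the 5 GBPs, the 48 h libraries held 431 CPM ± 6.85 (SD, n = 3), against 236 ± 3.27 (SD, n = 3) in control and 249.7 ± 9.72 (SD, n = 3) in the 24 h libraries. Gbp7 made up 13.4% ± 1.74 (SD, n = 3) of the GBP counts in control and 18.6% to 19.3% in the 48 h libraries. The share of Gbp5 went from 1.59% ± 0.240 to 3.86% ± 0.0547 (SD, n = 3 each), while that of Gbp2 went from 41.3% ± 1.90 to 36.6% ± 0.848 (SD, n = 3 each). Gbp2b held 26.8% ± 1.38 of the GBP counts in control and 26.6% ± 0.801 at 48 h (SD, n = 3 each). Gbp7 counts were 0.758, 0.706 and 0.914 of Gbp3 counts in the control libraries and 1.34, 1.35 and 1.40 of them at 48 h. These count ratios are not corrected for gene length, and per length the mean of Gbp3 lay above that of Gbp7 in each group, at 18.4 against 14.6 CPM per kilobase at 48 h.

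Summed over the 4 IRGs, the 48 h libraries held 122 CPM ± 6.58 (SD, n = 3), against 104 ± 6.48 (SD, n = 3) in control and 88.9 ± 1.61 (SD, n = 3) in the 24 h libraries. Irgm1 made up 40.6% ± 1.55 of the IRG counts in control and 34.6% ± 1.46 at 48 h, and Irgm2 37.8% ± 1.35 and 42.0% ± 0.362 (SD, n = 3 each). The ratio of Irgm2 to Irgm1 counts was 0.912, 0.877 and 1.01 in control, 0.928, 0.853 and 0.775 at 24 h, and 1.27, 1.21 and 1.16 at 48 h. The 48 h ratios lay above all others. Per length the mean of Irgm2 lay above that of Irgm1 in each group. Irgm2 to Igtp, the overlapping pair, had a ratio of 1.80 ± 0.0727 in control, 1.73 ± 0.212 at 24 h and 1.92 ± 0.105 at 48 h (SD, n = 3 each). These sums, shares and ratios were not tested.

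Relatives outside the 9 members were scarce, apart from Irgq at 42.1 CPM ± 2.00 (SD, n = 3) in control. The list held 24 symbols, which name 23 genes, since Ifgga1 is an older name of Iigp1, and 7 of them passed the filter on low counts. Gbp4 and Gbp10 passed it only through their 48 h libraries, so their place among the genes tested depends on the difference itself, and their tests are not given. The 5 others were all called higher at 48 h versus control, where 22.0% of all genes tested were called higher. Their median log2FC was 1.55, against -0.0022 for all genes tested. Gbp9 went from 2.85 CPM ± 0.959 (SD, n = 3) to 9.47 ± 0.474 (SD, n = 3), a log2FC of 1.75 (SE 0.195, adjusted p 7.00e-07). Iigp1, a GKS effector that coats parasite vacuoles, went from 1.48 CPM ± 0.277 to 4.86 ± 0.591 (SD, n = 3 each), a log2FC of 1.70 (SE 0.224, adjusted p 5.72e-06). Tgtp2, another GKS effector, had 1.55 (adjusted p 0.000203). At 24 h only Irgq, a divergent member of the family, was called, with a log2FC of 0.25 (adjusted p 0.0498). At that time 3.25% of all genes tested were called higher and 2.90% lower. The other 16 relatives had at most 18 counts in a library.

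Genes beside the members moved in both directions. So did all genes tested, with 22.0% called higher and 24.4% lower at 48 h versus control. Within 50 kb of the IRG members 6 non-member genes were tested, and beside the GBP cluster there was none. Tgtp2, the gene before Ifi47 and itself one of the relatives above, was the only neighbour called higher at 48 h versus control. Gemin5 (-0.55, adjusted p 9.37e-07) and Mrpl22 (-0.45, adjusted p 0.000559), which lie before the Igtp and Irgm2 pair, were called lower on the log2 scale, and so was Gm12184 near Irgm1 (-0.59, adjusted p 0.000756), which overlaps Trim7 on the opposite strand. Trim41 had 0.11 (adjusted p 0.171) and Trim7 0.021 (adjusted p 0.936).

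The upstream route was read from the interferons to the transcription factors. Interferon RNA was at or near 0 in the MLO-Y4 cells. Ifng had 1 count in 1 of the 24 h libraries and 0 in the 8 others, where a count of 0 allows up to 0.160 to 0.245 CPM by library depth. Ifnb1 had 3 counts in 1 control library and 0 elsewhere, and Ifna2, Ifna4, Ifnl2 and Ifnl3 had 0 in every library. RNA of the chondrocytes was not measured.

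Of the interferon receptors, all 4 were tested, and 3 were higher and 1 lower at 48 h versus control. The shares over all genes tested were 22.0% higher and 24.4% lower. Ifngr1, the chain that binds interferon-γ, was at 148, 162 and 143 CPM in control, at 140.5, 141 and 145 CPM at 24 h, and at 217, 205.5 and 197 CPM at 48 h. Its 48 h libraries lay above all others, with a log2FC of 0.45 (adjusted p 2.68e-06) against control. Ifngr2, its signalling partner, moved the other way, by -0.20 on the log2 scale (adjusted p 0.00874). The type I receptor chains Ifnar1 and Ifnar2 had 0.31 (adjusted p 0.000123) and 0.49 (adjusted p 1.47e-05), and Ifnar2 was the only receptor called at 24 h, at 0.47 (adjusted p 0.000277).

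Among 9 kinases and transcription factors considered, 6 were higher and none lower at 48 h versus control, with a median log2FC of 0.26. Over all genes tested 22.0% were higher and 24.4% lower. Irf1, an interferon-induced factor that binds the ISRE, was at 99.4, 105 and 104 CPM in control, at 85.4, 99.5 and 91.0 CPM at 24 h, and at 144, 139.8 and 127 CPM at 48 h. The 48 h libraries lay above all others, with a log2FC of 0.41 (adjusted p 3.27e-05) against control. Stat2, the STAT of the type I pathway, changed most on this list, with 1.26 (adjusted p 7.81e-12). Irf9, its partner in that complex, was not called, with -0.029 (adjusted p 0.757). Jak1 (-0.024, adjusted p 0.686) and Tyk2 (0.050, adjusted p 0.601) were not called either. Nlrc5, an interferon-induced activator of MHC class I genes, had 0.71 (adjusted p 3.98e-07) and Jak2, the kinase on the interferon-γ receptor, 0.38 (adjusted p 0.000175).

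Of 6 inhibitors of interferon signalling tested, 2 were higher and 1 lower at 48 h versus control. These counts stand beside 22.0% higher and 24.4% lower over all genes tested. Socs3, a feedback inhibitor induced by many cytokines, was called higher at both times, with log2FCs of 0.57 (adjusted p 2.10e-05) for 24 h and 0.94 (adjusted p 2.65e-09) for 48 h. Pias1 had 0.18 (adjusted p 0.0454) and Ptpn11 -0.20 (adjusted p 0.0018) at 48 h. The 3 others were not called in either comparison with control.

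Other interferon-stimulated genes were split. Of 17 tested, Mx1 passed the filter only through its 48 h libraries. Of the 16 others, 8 were higher and 2 lower at 48 h versus control, where 22.0% of all genes tested were higher and 24.4% lower. Their median log2FC was 0.34, beside the 0.86 of the GBPs and the 0.34 of the IRGs. Rsad2, an antiviral enzyme, had the largest value at 2.07 (adjusted p 3.64e-09), followed by Ifit1, which binds viral RNA, at 1.52 (adjusted p 6.82e-12), and Oas2, a sensor of double-stranded RNA, at 1.30 (adjusted p 1.13e-06). Ifit3 was lower at 24 h, with -0.58 (adjusted p 0.00569), and higher at 48 h, with 1.03 (adjusted p 3.39e-07), an order like that of Irgm2. Bst2 and B2m were the genes called lower at 48 h, with -0.37 (adjusted p 0.000598) and -0.26 (adjusted p 0.000165). Tap1, a peptide transporter, was the other gene called at 24 h besides Ifit3, with -0.24 (adjusted p 0.0204). The lists compared here are of different size and were not tested against each other.

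**Figure D5:**
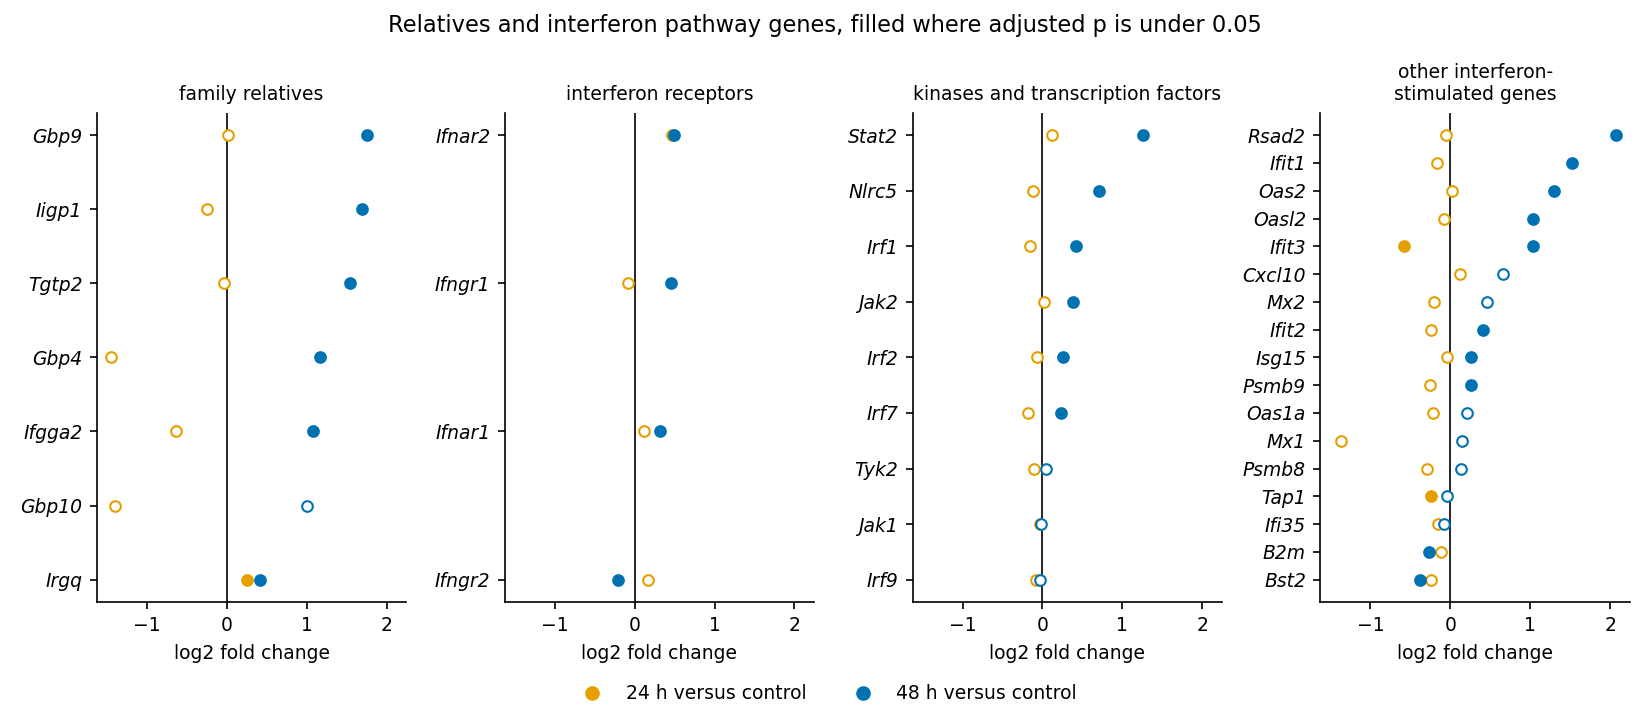
Log2FC of tested genes on 4 lists, orange for 24 h versus control and blue for 48 h versus control, filled where the adjusted p was under 0.05. Gbp4, Gbp10 and Mx1 passed the filter on low counts only through their 48 h libraries. The 5 other relatives are called higher at 48 h, Stat2 reaches 1.26 and Rsad2 2.07.

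Genes that act with the GTPases were read from the lists chosen for them. Of the 4 tested inflammasome partners of GBPs, all were higher at 48 h versus control and none was called at 24 h. At 48 h 22.0% of all genes tested were higher. Casp4, the caspase that senses lipopolysaccharide on GBP coats, went from 7.33 CPM ± 1.30 to 20.9 ± 1.66 (SD, n = 3 each), a log2FC of 1.52 (adjusted p 6.76e-08). Gsdmd, the pore-forming target of these caspases, had 0.97 (adjusted p 0.00189), Casp1 0.87 (adjusted p 0.000787) and Pycard, the adaptor, 0.75 (adjusted p 0.0368). Aim2 and Nlrp3 did not pass the filter on low counts.

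Of 5 enzymes that prenylate proteins such as Gbp2, Gbp2b and Gbp5 or process them afterwards, none was called higher at 48 h versus control, and Fntb, a subunit of farnesyltransferase, was lower with -0.31 (adjusted p 0.00339). Icmt, a methyltransferase of prenylated proteins, was called higher at 24 h, with 0.23 (adjusted p 0.0179). Of 10 genes of ATG8 conjugation, the machinery that guides IRGs and GBPs to vacuoles, 4 were higher and 1 lower at 48 h versus control. Both lists stand beside 22.0% higher and 24.4% lower over all genes tested. Map1lc3b, the gene of the autophagosome protein LC3B, was lower at 24 h, with -0.22 (adjusted p 0.0128), and higher at 48 h, with 0.62 (adjusted p 1.11e-08). Gabarap behaved likewise, with -0.18 (adjusted p 0.0414) and 0.25 (adjusted p 0.00068). Map1lc3a had 0.37 (adjusted p 0.00035), Gabarapl1 0.21 (adjusted p 0.00594) and Atg3 -0.25 (adjusted p 0.011) at 48 h.

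Dynamin superfamily GTPases outside the interferon families, taken as relatives by fold, had a median log2FC of -0.14 at 48 h versus control, with 2 of 9 called higher and 4 lower, where 22.0% of all genes tested were higher and 24.4% lower. The values were -0.32 for Mfn2 (adjusted p 0.000162), -0.32 for Atl2 (adjusted p 0.000587), 0.27 for Atl3 (adjusted p 0.00688) and -0.18 for Dnm2 (adjusted p 0.0409).

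Irgm1 was the member least like the others in its course over the libraries. The Pearson correlation of a member's log2 CPM over the 9 libraries with the mean standardised profile of the 8 others was 0.965 for Gbp7, 0.963 for Gbp3, 0.958 for Gbp2b and 0.456 for Irgm1. The 5 other members lay between 0.868 and 0.919. Among 10072 other protein-coding genes with a mean of at least 5 CPM, the 5 with the most similar profile were Cyp51 (0.996), Ifi203 (0.996), Fbxl20 (0.995), Hacd4 (0.995) and Rhoq (0.995), over 9 libraries. Ifi203 is itself an interferon-inducible gene, and went from 6.19 CPM ± 0.978 (SD, n = 3) in control to 16.2 ± 0.698 (SD, n = 3) at 48 h. Cyp51, an enzyme of cholesterol synthesis, went from 160.3 CPM ± 6.22 (SD, n = 3) to 216 ± 2.40 (SD, n = 3). The libraries are 3 groups of 3, so a high value says little more than that the 48 h libraries stood above both other groups.

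Total counts ran from 12250628 to 18515456 per library, and the 48 h libraries were the deepest. Markers of mature osteocytes were mixed, and bone matrix and gap junction genes were high. The summed level of 13 osteocyte and osteoblast markers was 3288 to 3464 CPM in control, 3299 to 3340 at 24 h and 4180 to 4249.6 at 48 h, carried by Gja1 and Col1a1, whereas Mepe and Fgf23 were at 0 in every library and Sost and Dmp1 had at most 6 counts. At 48 h versus control 4 of the 9 markers tested were higher and 4 lower, beside 22.0% and 24.4% of all genes tested. Sp7 (-1.07, adjusted p 0.0139), Bglap (-0.59, adjusted p 0.0336), Alpl (-0.38, adjusted p 0.00112) and Col1a1 (-0.14, adjusted p 0.0085) were lower on the log2 scale. Gja1 was higher, with 0.69 (adjusted p 1.14e-10). Phex, an osteocyte gene of phosphate handling, was at 14.6 CPM in control and higher at 48 h, with a log2FC of 0.43 (adjusted p 0.0024). Pdpn, a marker of early osteocytes, was at 212 CPM in control and higher at both times, with 0.27 (adjusted p 0.000935) for 24 h and 0.15 (adjusted p 0.0161) for 48 h. Blood cells can express GBPs and IRGs strongly. Of their markers, Adgre1, Itgam, Tyrobp and Aif1 were at 0 in every library and Ptprc had 1 count in 1 of the 48 h libraries. Lyz2 had 4 to 10 counts in a control library, 3 to 4 at 24 h and 7 to 11 at 48 h. Fcer1g had 0 to 3 counts in control, 1 to 4 at 24 h and 2 to 14 at 48 h. The 11 macrophage and other blood cell markers summed to 16.6 to 17.9 CPM in control, 21.9 to 24.0 at 24 h and 18.7 to 21.3 at 48 h, of which Cd14 was the largest part. Cd14 was called higher at both times, with 0.62 (adjusted p 0.000304) for 24 h and 0.27 (adjusted p 0.0285) for 48 h. Csf1r, with 39 to 50 counts in a control library, was lower at 24 h, with -0.84 (adjusted p 0.0377), was at -0.026 (adjusted p 0.933) at 48 h against control, and was higher at 48 h versus 24 h, with 0.81 (adjusted p 0.0062). The part of such cells in the members' values was not tested. Of 11 chondrocyte markers, Acan, Col9a1, Matn1 and Cnmd were at 0 in every library and Col2a1 had at most 7 counts, and their sum of 104 to 131 CPM was nearly all Sox9. The 5 endothelial markers summed to 0.171 to 0.734 CPM.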

How the data were processed

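RNA of 9 libraries, 3 per group, was measured by paired-end sequencing of directional libraries. The authors deposited raw counts per gene, whole numbers that were not normalized. Per the labels, reads were aligned with HISAT2 to GRCm39 and counted with featureCounts (version 2.06 in the submitters' processing notes, while another version is given elsewhere in the labels). Use of strand in counting and the handling of reads with several matches are not given in the sources used here, and antisense and overlapping genes are uncertain.

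Counts were analysed with edgeR 4.0.16 in R 4.3.3. The filterByExpr function with a minimum count of 10 kept 13812 of 56748 genes. TMM scaling and 1 quasi-likelihood fit of the 9 libraries with group as the only term followed, with 6 residual degrees of freedom. P-values were adjusted by Benjamini-Hochberg over all genes tested, and a gene is called at an adjusted p under 0.05. The procedure was tested on simulated data. CPM are relative to the TMM-scaled library total, and a count of 0 was taken to allow 3 counts, which covers counting error only. Libraries of a group differed by more than counting noise in each of 9 pairs, with a chi-square per degree of freedom of 2.26 to 8.14. The labels do not say that replicates came from separate cultures, so p-values measure the spread between these samples, which may be technical. Both comparisons with control share the control libraries.

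Alternatives were limma 3.58.1 (voom), DESeq2 1.42.0, other scalings and filters, other thresholds, a replicate block, a fit of only the groups compared and each library left out. Coding identity was computed from GENCODE M39 coding exons with Biopython 1.88. Promoters came from RefSeq on GRCm38.p6, and each matched exactly 1 place in GRCm39. Older symbols were matched through the same RefSeq release.

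The members and lists were chosen with earlier results of these data known. Besides the 9 members, the rule named Ifng, Ifngr1 and Irf1, at most 4 called genes of each list in a comparison, those of largest absolute log2 fold change, tested genes within 50 kb of members, and the 5 genes of most similar profile. Bst2, B2m, Gabarapl1, Mx1, Phex, Pdpn, Cd14 and Csf1r were named after their values were seen, as were interferon genes and markers at or near 0. So were Irf9, Jak1, Tyk2, Sp7, Bglap, Alpl, Col1a1, Gja1, Lyz2 and Fcer1g. A gene of the list of kinases and transcription factors is not reported here and was left out of the counts of that list.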

Additional observations from a re-analysis of the deposited data

Results flagged for a closer look

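Of the 9 members, 8 had an effect that differed between 24 h and 48 h of co-culture with stimulated chondrocytes, by the edgeR test of 48 h versus 24 h. Of all genes tested, 23.7% were called higher and 25.4% lower in that comparison. The difference in log2 fold change was 0.57 for Gbp2 (adjusted p 1.24e-07), 0.79 for Gbp2b (adjusted p 4.65e-09), 0.61 for Gbp3 (adjusted p 7.27e-07), 1.66 for Gbp5 (adjusted p 4.90e-09) and 1.35 for Gbp7 (adjusted p 7.01e-11). It was 0.68 for Irgm2 (adjusted p 6.26e-07), 0.53 for Igtp (adjusted p 6.44e-05) and 1.68 for Ifi47 (adjusted p 0.000975). In each of these genes every 48 h library lay above every 24 h library, 3 of 3. The same held for 29.1% of all genes tested. For Irgm2 the 24 h mean lay below control and the 48 h mean above it. Stimulation, culture time and the cell line names given for the 48 h samples cannot be told apart in these differences.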

How the results depend on the processing

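The count of members called at 48 h versus control stayed at 8 under library size only, RLE size factors, no filter, a filter of 1 CPM, limma-voom, DESeq2, only the groups compared and the replicate block. It was 7 at an adjusted p under 0.01, 7 to 8 over the fits without 1 library, and 3 with a log2 fold change of at least 1. For 48 h versus 24 h it was 8 to 9 over all settings but the last, which gave 3. At 24 h versus control the count of 1 became 0 in the fit of only the groups compared, where Irgm2 had an adjusted p of 0.0691, at an adjusted p under 0.01 and with a log2 fold change of at least 1, and lay between 0 and 1 without 1 library. Replicate numbers did not pair the samples, with correlations of same-numbered deviations from -0.049 to 0.078, and the replicate block left 8, 1 and 8 members called at 48 h versus control, 24 h versus control and 48 h versus 24 h. Signs turned only in values that were not called. Without 1 library, log2 fold changes ran from -0.060 to 0.058 for Irgm1 at 48 h versus control, with -0.0099 without control replicate 2. At 24 h versus control they ran from -0.046 to 0.14 for Gbp7, from -0.099 to 0.045 for Gbp3, with 0.00012 without 24 h replicate 3, and from -0.50 to 0.11 for Ifi47. The mean of Gbp7 at 48 h was 81.9 CPM and became 82.9 on the plain library total. Limits are the unknown culture time of the control, the low counts of Ifi47 and reads shared by Irgm2 and Igtp and by Gbp7 and Gm43802. The exon overlap of Ifi47 with Or2v1 is another limit. The causes of these changes were not tested.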
